A study of Mus musculus with 30 samples.

Results

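The proteasome genes of mouse bone marrow progenitors were taken from the deposited expression table by symbol, as every gene named Psma, Psmb, Psmc, Psmd or Psme followed by a number, without pseudogenes. This gave 44 of the 11383 genes. They comprised 7 genes of the alpha ring of the 20S core, 4 non-catalytic beta genes, 3 constitutive catalytic beta genes (Psmb5, Psmb6 and Psmb7), 3 immunoproteasome beta genes (Psmb8, Psmb9 and Psmb10), 6 ATPases and 11 non-ATPase subunits of the 19S cap, 3 chaperones of cap assembly and 4 activator genes. 3 further genes carry the symbol without being a standard subunit. Psma8 is a testis form of an alpha subunit, Psme2b is a copy of the activator gene Psme2, and Psmc3ip encodes a factor of meiotic recombination that is not a proteasome subunit.

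RNA was sequenced from sorted bone marrow progenitor cells of wild-type mice in 30 libraries, 3 for each of 10 groups. The 6 naive groups were GMP (granulocyte-monocyte progenitor), MDP (progenitor of monocytes and dendritic cells), cMoP (common progenitor of monocytes), proNeu1 and proNeu2, which are progenitors of neutrophils, and GMP-MoP, which the series title describes as sharing expression features of neutrophil and monocyte progenitors. GMP, proNeu1, proNeu2 and GMP-MoP were also sequenced from animals labelled LPS, 2 days. LPS is lipopolysaccharide, a component of the outer membrane of Gram-negative bacteria. The labels give neither its route, the age and sex of the mice, the sort gates nor preparation dates, so an effect of LPS and of separate preparation cannot be told apart. The titles number the libraries as biological replicates, but nothing states that they came from separate animals, so p-values measure the spread between these libraries.

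The proteasome is the main protease for ubiquitin-tagged proteins. Its 20S core is a barrel of alpha and beta rings, and the 19S cap recognises tagged proteins, removes the ubiquitin and unfolds the chain with its ATPases. Psmb5, Psmb6 and Psmb7 encode the proteolytic sites of the constitutive core, which cut after hydrophobic, acidic and basic residues, respectively. In immune cells and after interferon-gamma these sites are replaced by Psmb8 in place of Psmb5, Psmb9 in place of Psmb6 and Psmb10 in place of Psmb7, a form known for producing peptides for MHC class I. Psme1 and Psme2 encode the ring-shaped activator PA28, which opens the core without the cap.

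The immunoproteasome and constitutive genes lie at separate places in the genome. On build GRCm38, annotated with GENCODE M21, Psmb8 lies on chromosome 17 (34197721 to 34201454, plus strand) and Psmb9 on the same chromosome (34181987 to 34187764, minus strand), with the peptide transporter gene Tap1 between them (34187553 to 34197225, plus strand) and Tap2 after Psmb8 (34203527 to 34216321, plus strand). Psmb10 lies on chromosome 8 (105935735 to 105938444), Psmb5 on chromosome 14 (54614119 to 54618022), Psmb6 on chromosome 11 (70525367 to 70527858) and Psmb7 on chromosome 2 (38588036 to 38644087). The 250 bases before the RefSeq start (build GRCm38.p6) are shown for 4 of the 6 catalytic genes, written on the strand of the gene. Each of these 4 windows held a searched motif. The window of Psmb10 held none, and for Psmb7 no window is given here. Capitals mark a gamma-activated site (TTCNNNGAA) in Psmb8, a CCAAT box read on the other strand in Psmb9, and an antioxidant response element (TGACNNNGC) in Psmb5 and Psmb6.
Psmb8: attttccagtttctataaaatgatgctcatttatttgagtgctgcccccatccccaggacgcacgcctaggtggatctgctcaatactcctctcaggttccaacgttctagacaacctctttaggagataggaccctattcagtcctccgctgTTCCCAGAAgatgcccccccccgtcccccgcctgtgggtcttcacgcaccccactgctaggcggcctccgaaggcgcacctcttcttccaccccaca
Psmb9: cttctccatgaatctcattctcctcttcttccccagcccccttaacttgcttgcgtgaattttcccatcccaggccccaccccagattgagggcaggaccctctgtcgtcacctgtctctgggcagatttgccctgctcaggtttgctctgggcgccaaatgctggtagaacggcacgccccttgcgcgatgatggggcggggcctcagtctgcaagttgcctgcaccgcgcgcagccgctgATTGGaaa
Psmb5: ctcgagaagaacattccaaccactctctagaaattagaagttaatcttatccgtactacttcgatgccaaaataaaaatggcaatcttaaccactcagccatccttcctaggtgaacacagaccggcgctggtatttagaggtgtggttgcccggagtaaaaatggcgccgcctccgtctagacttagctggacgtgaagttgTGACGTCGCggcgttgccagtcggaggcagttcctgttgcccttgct
Psmb6: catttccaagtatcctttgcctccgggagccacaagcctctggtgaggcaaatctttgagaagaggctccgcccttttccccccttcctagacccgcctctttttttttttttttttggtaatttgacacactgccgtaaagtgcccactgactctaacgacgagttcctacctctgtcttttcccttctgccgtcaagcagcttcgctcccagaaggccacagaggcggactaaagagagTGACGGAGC

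The Psmb8 window spans chr17:34197945-34198194 (plus strand), the Psmb9 window chr17:34187331-34187580 (minus strand), the Psmb5 window chr14:54617996-54618245 (minus strand) and the Psmb6 window chr11:70525107-70525356 (plus strand). The Psmb8 and Psmb9 windows lie within the gene spans given above, since the RefSeq start stands inside the GENCODE span. The Psmb9 window overlaps that of Tap1 on the other strand. Both strands were searched in the promoters of 37 of the 44 genes. The gamma-activated site was in 1 of 37 against 7.02% of all 32851 promoters, the antioxidant response element in 5 against 10.2%, and the CCAAT box in 14 against 33.9%. An interferon-stimulated response element was in 3, against 2.98% of all promoters, and an NF-kB site (GGGANNNCC) in 6, against 15.8%. A match of letters is a description and not a measured site.

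Levels are FPKM, fragments per kilobase of exon scaled to depth as deposited. Tests used limma on log2(FPKM + 1) with all 30 libraries in a single fit, and the threshold for a call was 0.05 for the p adjusted by Benjamini-Hochberg over all genes. On this scale a fold change understates the change of low genes. The values resolved into whole reads for all 11383 genes, with totals of 23.6 to 41.3 M assigned reads per library. Every proteasome gene had reads in every library, from 34 reads for Psma8 to 16736 for Psmd2, and all 44 passed the filter on low values. Of the lineage markers the mean level of Flt3 was 199 FPKM in naive MDP, that of Csf1r 123 FPKM in naive cMoP, and that of Camp 2509 FPKM in naive proNeu1 and 3610 FPKM in naive proNeu2, with no mean of another naive group above 38.2 FPKM. Of the other neutrophil granule genes Ltf and Ngp stood in the reverse order, at 1268 and 5581 FPKM in naive proNeu1 and 416.4 and 4768 FPKM in naive proNeu2. The LPS proNeu1 libraries differed widely among themselves in these genes, with Camp at 2455 ± 1495 FPKM and Ngp at 3937 ± 2205 FPKM (SD, n = 3). Naive GMP stood apart in markers of basophils, eosinophils and mast cells. The 14 genes of that list summed to 18440 to 20340 FPKM in naive GMP and 7467 to 9017 FPKM in LPS GMP, while no library of another group passed 1004 FPKM. In bulk RNA, fewer cells of a type and less RNA per cell cannot be told apart.

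Proteasome genes were abundant. Their median mean level was 74.8 FPKM, against 11 FPKM over all genes. The alpha subunit gene Psma7 was highest, at a mean of 185.5 FPKM over the 30 libraries, followed by the activator gene Psme1 at 179.3 FPKM. In the non-catalytic beta genes the range ran from Psmb1 at 53.8 to Psmb3 at 163.4 FPKM, in the ATPases from Psmc6 at 58.2 to Psmc1 at 126.0 FPKM, and in the other cap subunits from Psmd12 at 36.5 to Psmd2, a scaffold of the cap base, at 118.4 FPKM. The cap chaperones were far lower, with Psmd10 at 9.80, Psmd9 at 10.3 and Psmd5 at 17.1 FPKM, and Psma8 had a mean of 2.30 FPKM. The FPKM of Psmb1, Psma3 and Psma2 was divided by long exon lengths of 3427, 2846 and 2911 bases, which lowers their place in such an order. The same holds for the chaperone genes Psmd5, Psmd10 and Psmd9, at 4397, 2938 and 2597 bases.

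**Figure D1:**
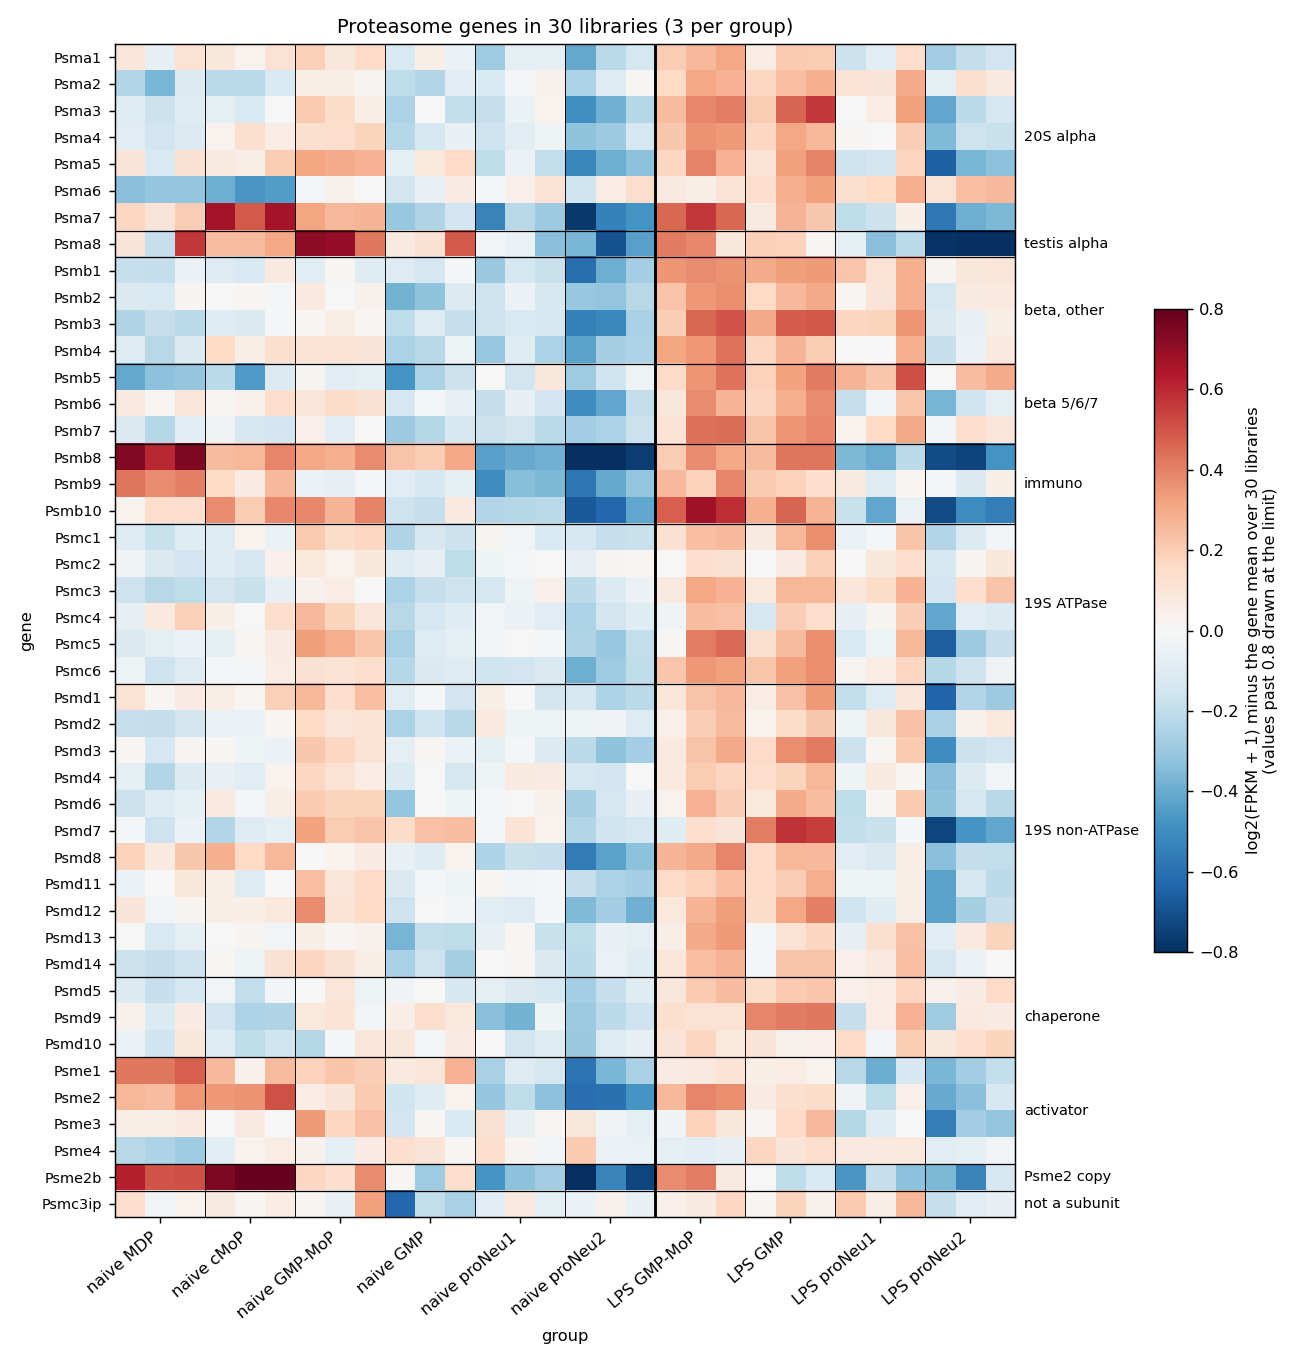
Each row is 1 of the 44 genes, ordered by role, and each column 1 of the 30 libraries, with thin lines between groups and a thick line between naive and LPS. Colour gives log2(FPKM + 1) less the gene's mean over the 30 libraries; the median of a library's column runs from -0.30 in LPS proNeu2 library 1 to 0.29 in LPS GMP-MoP library 2.

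Most members kept within a narrow range across the naive populations. The range of group means over the 6 naive groups had a median of 0.41 on the log2 scale for the 44 genes, against 0.72 over all genes. An F test of limma over the 6 naive groups called 40 of 44 genes at an adjusted p under 0.05, and 88.5% of all genes were called. The exceptions were Psmb7, with an adjusted p of 0.0818, the ATPase genes Psmc2 and Psmc3, with limma adjusted p values of 0.0558 and 0.0576, and the chaperone gene Psmd10, with 0.134. The immunoproteasome genes varied more than their constitutive partners. The range across naive group means was 1.55 on the log2 scale for Psmb8, 0.92 for Psmb10 and 0.84 for Psmb9, while the median was 0.33 for the 3 constitutive catalytic genes. Such a width was not particular to the immunoproteasome. The range was 0.96 for Psme2, 0.85 for Psme1, 1.54 for the copy Psme2b and 1.11 for Psma8. Psma7, at 1.21, was the only gene of the core or cap outside the immunoproteasome and the testis form with a range over 1.

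Psmb8 was highest in naive MDP and lowest in the neutrophil progenitors. Its values were 122, 111 and 122 FPKM in naive MDP, 86.7, 87.6 and 95.4 FPKM in cMoP, 90.4, 88.7 and 94.7 FPKM in GMP-MoP and 85.5, 83.7 and 90.3 FPKM in GMP. In proNeu1 they were 53.5, 54.8 and 55.4 FPKM, and in proNeu2 37.4, 39.1 and 42.6 FPKM. The MDP libraries lay above all others, cMoP, GMP-MoP and GMP overlapped, and both neutrophil progenitors lay below without overlap with each other. Psmb8 was lower in cMoP than in MDP (log2 fold change -0.39, SE 0.07, limma adjusted p = 4.53e-05), lower in proNeu1 than in GMP (-0.65, SE 0.07, limma adjusted p = 1.43e-08) and lower in proNeu2 than in proNeu1 (-0.45, SE 0.07, limma adjusted p = 3.01e-05). Between GMP-MoP and cMoP the difference was 0.02 (SE 0.07), and between GMP-MoP and GMP it was 0.08 (SE 0.07), neither past the threshold (limma adjusted p = 0.836 and 0.379).

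Psmb9 was also highest in MDP among the naive groups. Its mean was 82.0 ± 1.43 FPKM there (SD, n = 3), 69.4 ± 4.74 FPKM in cMoP, 58.9 to 61.3 FPKM in GMP-MoP, 57.5 ± 1.35 FPKM in GMP, 46.6 ± 2.86 FPKM in proNeu1 and 45.6 ± 4.30 FPKM in proNeu2. The libraries of neighbours in this order did not overlap, except those of proNeu1 and proNeu2. Psmb9 differed between proNeu1 and GMP (log2 fold change -0.30, SE 0.07, limma adjusted p = 0.000368) but not past the threshold between proNeu2 and proNeu1 (-0.03, SE 0.07, limma adjusted p = 0.734). Psmb10 followed another order. It was highest in GMP-MoP (68.5 ± 3.26 FPKM) and cMoP (67.1 ± 4.79 FPKM), which overlapped, then came MDP (57.4 ± 2.54 FPKM), GMP (50.4 ± 5.34 FPKM), proNeu1 (45.6 ± 0.35 FPKM) and proNeu2 (35.8 ± 3.63 FPKM). MDP and GMP overlapped for Psmb10, and the other neighbours did not. The fall of Psmb10 from proNeu1 to proNeu2 passed (log2 fold change -0.34, SE 0.09, limma adjusted p = 0.00427), while that from GMP to proNeu1 was at -0.14 (SE 0.09, limma adjusted p = 0.188).

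The constitutive partners varied less between naive groups. Psmb5 was lowest in MDP, at 65.6, 69.4 and 70.2 FPKM, and highest among naive groups in proNeu1, at 87.1, 78.6 and 92.9 FPKM. Psmb5 was higher in proNeu1 than in GMP (log2 fold change 0.28, SE 0.10, limma adjusted p = 0.0227). Psmb6 ran from 144.5 ± 2.47 FPKM in GMP-MoP to 102.9 ± 11.6 FPKM in proNeu2, and Psmb7 stayed between 57.5 ± 2.25 FPKM in proNeu2 and 67.2 ± 2.97 FPKM in GMP-MoP. Reads of Psmb5 may be shared with copies, since 71.7% of its 31-base words also occur in other annotated genes, first the pseudogene Gm3375. In GENCODE M21, exons of Psmb7 overlap those of Nek6 on the opposite strand over 11.8% of their bases. Those of Psmb9 overlap Tap1 over 5.79% and those of Psmb8 the gene Gm20496 over 14.7%. The exons of Psmb7, Psmb9 and Psmb8 span 3421, 3660 and 3381 bases there, but the FPKM imply 1160, 1352 and 1628 bases. The overlaps may thus lie outside the counted bases, and the strand setting of the counts is not given in the sources used here.

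**Figure D2:**
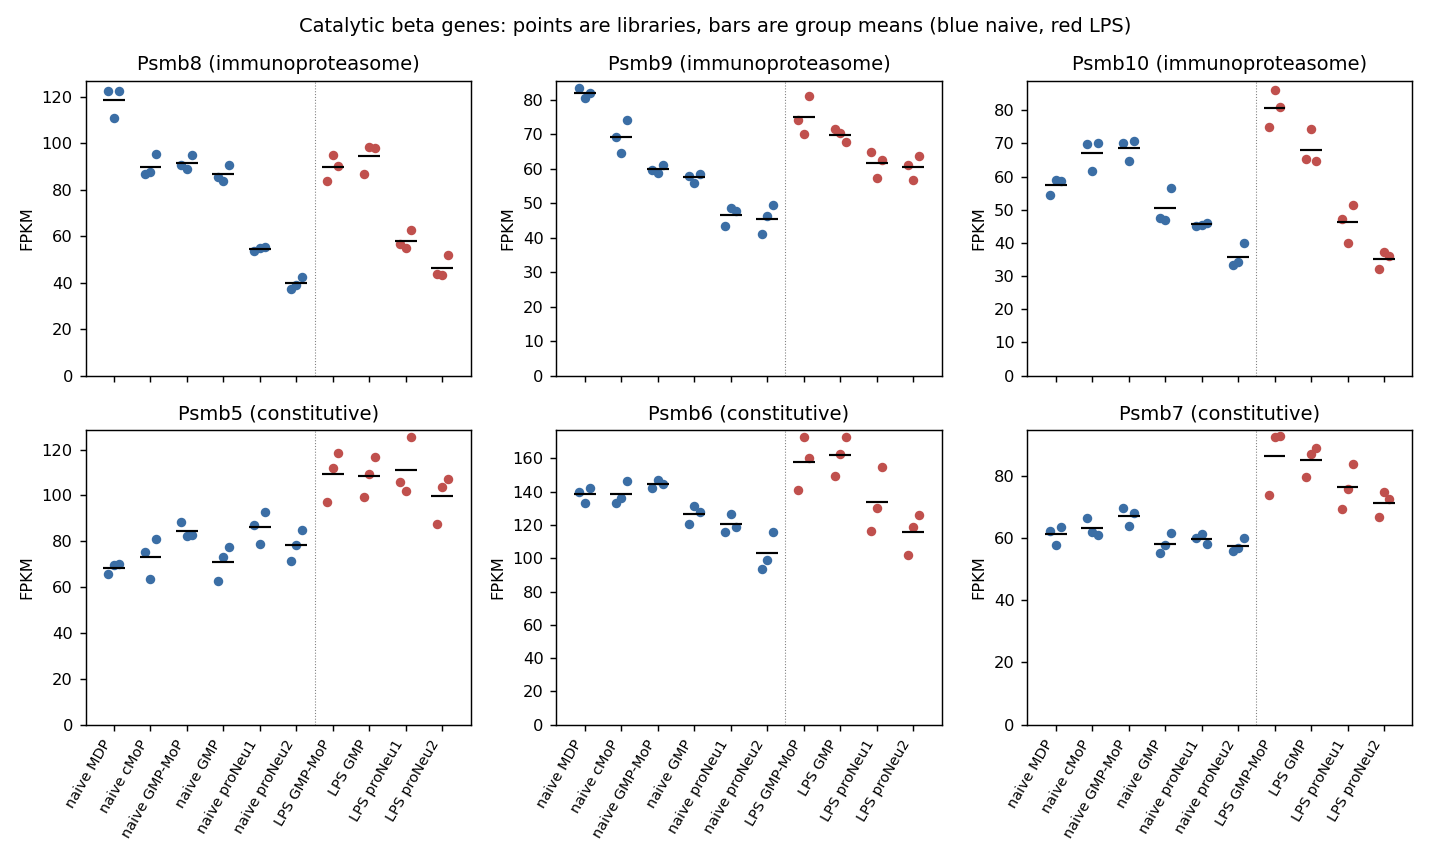
FPKM of the 6 catalytic beta genes, 1 panel a gene and 1 point a library, with bars at the means of 3 libraries, naive in blue and LPS in red. Psmb8 falls from 118.5 FPKM in naive MDP to 39.7 FPKM in naive proNeu2, while Psmb7 stays between 57.5 and 67.2 FPKM in all naive groups and is higher in each LPS group.

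Set against each other, the immunoproteasome genes held a higher share of catalytic gene expression in MDP than in any other naive group, and a lower share in the neutrophil progenitors. The 3 genes held 49.0 ± 0.23% of the summed FPKM of the 6 catalytic genes in MDP, 45.2 ± 0.23% in cMoP, 41.6 to 44.5% over the libraries of GMP, 42.6 ± 0.77% in GMP-MoP, 35.5 ± 0.40% in proNeu1 and 33.7 ± 0.14% in proNeu2 (SD, n = 3). The ranges of MDP, cMoP, proNeu1 and proNeu2 did not overlap with those of any other naive group, and those of GMP and GMP-MoP overlapped. These shares are a description with no test. Per pair, the ratio of Psmb8 to Psmb5 changed sign, though where 0 falls may depend on reads that Psmb5 shares with copies. It was 0.78 ± 0.11 on the log2 scale in MDP, 0.30 ± 0.14 in cMoP, 0.28 ± 0.14 in GMP and 0.11 ± 0.08 in GMP-MoP, all above 0, and -0.65 ± 0.12 in proNeu1 and -0.96 ± 0.04 in proNeu2. The ratio of Psmb9 to Psmb6 was below 0 in every library and had its highest mean in MDP, at -0.75 ± 0.03. It was -1.35 ± 0.05 in proNeu1 and -1.16 ± 0.07 in proNeu2, against -1.12 ± 0.09 in GMP and -1.25 ± 0.04 in GMP-MoP. In this pair proNeu2 thus overlapped with GMP and lay above GMP-MoP. Psmb10 to Psmb7 lay near 0 in cMoP (0.09 ± 0.11), GMP-MoP (0.03 ± 0.02) and MDP (-0.09 ± 0.11) and was -0.67 ± 0.08 in proNeu2.

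The step from MDP to cMoP changed few proteasome genes. Between cMoP and MDP, 6 of 44 genes were higher and 3 lower, while 18.2% of all genes were called higher and 28.8% lower. The lower genes were Psmb8, Psmb9 and the activator gene Psme1, which fell from 239.8 ± 5.38 FPKM in MDP to 200.9 ± 17.4 FPKM in cMoP (log2 fold change -0.26, SE 0.08, limma adjusted p = 0.00721). Psma7 was the member with the greatest rise, at 200, 192 and 205 FPKM in MDP and 284, 251 and 284 FPKM in cMoP, with no overlap (0.45, SE 0.08, limma adjusted p = 9.36e-05). Psmb4, the activator gene Psme4, Psmb10, Psmd14, the deubiquitinase of the cap, and Psma4 were the others that rose. With median-of-ratios scaling the split was 17 higher and 1 lower, and with the fit of these groups alone 10 were higher. Markers of other cells moved here too. All 6 dendritic cell and MHC class II genes fell, from a summed 169.9 to 324.7 FPKM in MDP to 7.10 to 12.02 FPKM in cMoP. Of 6 lymphoid markers 4 fell, from 227.8 to 287.8 FPKM to 53.0 to 58.4 FPKM. Of 8 macrophage markers 6 fell and 2 rose, with sums of 12 to 17.6 FPKM in MDP and 16.4 to 17.8 FPKM in cMoP, where C1qa, C1qb and C1qc were at 0, and of 20 interferon response genes 9 fell and 5 rose. The part of these lists in the changes of Psmb8, Psmb9 and Psme1 was not tested.

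Between proNeu1 and GMP, 4 genes were higher (18.5% of all genes) and 8 lower (39.7%). Psmb8, Psmb9, Psme1, Psme2, Psme2b, Psma8, Psmd8 and the chaperone gene Psmd9 fell, Psmd9 from 10.9 ± 0.35 to 8.42 ± 1.24 FPKM. The calls on Psme2b and Psma8, both low genes, were lost with voom on the recovered reads. Psmb5, Psmd2, Psmd14 and Psmc3ip rose. This split turned with the scaling. All genes had a median log2 fold change of -0.14 here and of -0.01 after median-of-ratios scaling, which gave 19 higher and 3 lower, and relative to the median of all genes the members' median was 0.15 as deposited and 0.16 after scaling. Without proNeu1 library 1, or without GMP library 1, 1 gene was higher, and without GMP library 3, 4 were lower. In the same comparison the 14 markers of basophils, eosinophils and mast cells all fell, to a summed 452.8 to 1004 FPKM in proNeu1. All 6 dendritic cell and MHC class II genes fell, to 10.7 to 19.2 FPKM, and 7 of 8 macrophage markers fell and 1 rose, with sums of 35.9 to 37.8 FPKM in proNeu1. Of 6 lymphoid markers 5 fell and 1 rose, with sums of 577.0 to 644.7 FPKM in proNeu1 against 287.6 to 385.7 FPKM in GMP. Of 20 interferon response genes 12 fell and 3 rose, and of 22 cell cycle genes 14 rose and 2 fell. The part of these lists in the proteasome result was not tested.

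From proNeu1 to proNeu2 the movement was downward. 15 genes fell and 0 rose, against 21.4% and 10% of all genes, and for the 0 the count was also 0 at an unadjusted p under 0.05 in limma and 0 with voom on the recovered reads. The greatest falls were those of Psmb8, of Psme2b (log2 fold change -0.35, SE 0.12), of Psmb10 (-0.34, SE 0.09) and of Psma3 and Psmb3. The call on Psme2b, a gene with as few as 108 reads in a library, was lost with voom. Psmb3 had 143, 147 and 146 FPKM in proNeu1 and 110, 112 and 134 FPKM in proNeu2, so the groups did not overlap (-0.30, SE 0.07, limma adjusted p = 0.00384). All genes had a median log2 fold change of -0.06 here. Relative to the median of all genes the members' median was -0.09 as deposited and -0.07 after median-of-ratios scaling. The count of lower genes was 4 with median-of-ratios scaling. It was 7 without proNeu2 library 1, 7 without proNeu1 library 2 and 8 without proNeu1 library 3.

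GMP-MoP had the highest proteasome levels among the naive groups. It held the highest naive group mean for every constitutive core and cap gene except Psma6, Psma7, Psmb1, Psmb4, Psmb5 and Psmd8. The summed FPKM of the 31 constitutive core and cap genes was 3214 ± 53.4 in GMP-MoP, against 2994 ± 87.0 in cMoP and 2780 ± 83.4 in MDP. It was 2764 ± 69.6 in proNeu1, 2692 ± 119.5 in GMP and 2487 ± 136.1 in proNeu2. These sums and group means are as deposited. Median-of-ratios scaling divides by 1.10 in the MDP libraries, 1.07 to 1.08 in GMP, 1.03 to 1.04 in GMP-MoP and 0.90 to 0.93 in proNeu2. The order of the sums below GMP-MoP therefore depends on the scaling. So does the list of genes highest in GMP-MoP, as for Psmc2, at 72.35 FPKM there and 68.56 FPKM in proNeu2 as deposited. Against GMP, 29 of 44 genes were higher and 0 lower, where 21.4% of all genes were higher and 29.1% lower. The 0 was also 0 at an unadjusted p under 0.05 and 0 with voom. All 6 ATPases rose, as did 5 of 7 alpha genes, 3 of 4 non-catalytic beta genes and 8 of 11 other cap genes, while of the immunoproteasome Psmb10 alone passed. Psma7 had 145, 151 and 161 FPKM in GMP and 222, 214 and 216 FPKM in GMP-MoP (log2 fold change 0.51, SE 0.08, limma adjusted p = 1.77e-05). The ATPase gene Psmc5 rose from 85.8 ± 5.74 to 115.7 ± 4.65 FPKM (0.43, SE 0.11) and Psmb10 from 50.4 ± 5.34 to 68.5 ± 3.26 FPKM (0.44, SE 0.09). The members' median was 0.24, against -0.04 over all genes. Without GMP library 1 the count was 18. All 14 markers of basophils, eosinophils and mast cells fell in GMP-MoP, where they summed to 98.1 to 134.7 FPKM with Fcer1a and Cd200r3 at 0, and 13 of 22 cell cycle genes were higher. All 6 dendritic cell and MHC class II genes fell, from a summed 522.4 to 1263 FPKM in GMP to 5.72 to 8.60 FPKM, and 7 of 8 macrophage markers fell, from 64.5 to 83.0 FPKM to 14.6 to 16.2 FPKM. Of 6 lymphoid markers 4 fell, although their sums overlapped at 287.6 to 385.7 FPKM in GMP and 323.6 to 428.6 FPKM in GMP-MoP, and of 20 interferon response genes 12 fell and 3 rose. Their part in the proteasome difference was not tested.

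Against proNeu1, 24 genes were higher in GMP-MoP and 0 lower (30.2% and 17.5% of all genes; 0 lower also at an unadjusted p under 0.05 and with voom). All 3 immunoproteasome genes were among them, with log2 fold changes of 0.73 for Psmb8 (SE 0.07), 0.58 for Psmb10 (SE 0.09) and 0.36 for Psmb9 (SE 0.07). Psma8, with few reads, rose from 1.89 ± 0.34 to 3.86 ± 0.54 FPKM (0.75, SE 0.15, limma adjusted p = 0.000254). With median-of-ratios scaling 15 genes were higher. Against cMoP the picture was mixed, with 8 genes higher and 5 lower, against 19.9% and 20.1% of all genes. Psma6 rose from 114, 108 and 110 FPKM in cMoP to 148, 154 and 150 FPKM in GMP-MoP (0.44, SE 0.07, limma adjusted p = 8.59e-06), and Psmd7, a cap subunit that pairs with the deubiquitinase Psmd14, rose from 86.8 ± 5.04 to 114.1 ± 4.91 FPKM (0.39, SE 0.07). Psma7, Psme2, Psme2b, Psmd8 and Psmb9 were lower. The count of higher genes was 3 without GMP-MoP library 1, 4 without cMoP library 1 or 2, and 16 with the 2 groups fitted alone. The comparisons of GMP-MoP share its 3 libraries.

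Proteasome genes were higher in LPS than in naive libraries most widely in GMP. There 36 of 44 genes were higher and 0 lower, against 19.3% and 29.6% of all genes, and the 0 held at an unadjusted p under 0.05 and with voom. The risers were 29 of the 31 constitutive core and cap genes (all but Psma5 and Psmc4), Psmb9, Psmb10, the chaperone genes Psmd5 and Psmd9, Psme2, Psme3 and Psmc3ip. Their changes were modest. The members' median was 0.33 on the log2 scale against -0.06 over all genes, and no member passed the test with a log2 fold change of 1 or more on the log2(FPKM + 1) scale in any of the 10 comparisons. Psmb5 had 62.5, 73.2 and 77.6 FPKM in naive GMP and 99.2, 109 and 117 FPKM in LPS GMP (log2 fold change 0.60, SE 0.10, limma adjusted p = 3.70e-05). Psmb3 had 139, 149 and 141 FPKM in naive GMP and 199, 225 and 227 FPKM in LPS GMP (0.59, SE 0.07). For both genes the LPS libraries lay above all naive ones. Psma3 (0.56, SE 0.09), Psmb7 (0.54, SE 0.08) and Psmb2 (0.51, SE 0.07) came next.

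Other lists moved in the same comparison. Of 14 markers of basophils, eosinophils and mast cells 13 fell in LPS GMP and 0 were at 0 in either group. All 6 dendritic cell and MHC class II genes fell, from a summed 522.4 to 1263 FPKM to 57.5 to 137.8 FPKM, and 7 of 8 macrophage markers fell, from 64.5 to 83.0 FPKM to 22.8 to 25.6 FPKM. Of 6 lymphoid markers 5 fell and 1 rose, and their sums were 287.6 to 385.7 FPKM in naive and 400.1 to 479.3 FPKM in LPS GMP. Of 22 cell cycle genes 15 were higher and 1 lower. The part of these in the proteasome result was not tested. LPS GMP and GMP-MoP were both compared with the same 3 naive GMP libraries.

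In the other populations fewer genes passed, and many of them were beta genes. In GMP-MoP 13 genes were higher and 1 lower (13.4% and 17.6% of all genes), in proNeu1 14 were higher and 0 lower (11.2% and 17.2%; 1 lower at an unadjusted p under 0.05 and 0 with voom), and in proNeu2 15 were higher and 2 lower (12.6% and 24.1%). All 4 non-catalytic beta genes rose in each population. Psmb1 had 49.7, 53.7 and 49.5 FPKM in naive and 68.0, 69.1 and 68.2 FPKM in LPS GMP-MoP (log2 fold change 0.42, SE 0.07, limma adjusted p = 6.18e-05). In proNeu1 it had 42.9, 47.9 and 46.8 FPKM in naive and 61.9, 57.6 and 64.7 FPKM in LPS libraries (0.41, SE 0.07, limma adjusted p = 9.05e-05). In proNeu2 it had 34.6, 40.1 and 43.8 FPKM in naive and 53.8, 56.6 and 56.6 FPKM in LPS libraries (0.49, SE 0.07, limma adjusted p = 5.81e-06). In none of the 3 populations did the naive and LPS libraries overlap for Psmb1.

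10 genes were called higher in all 4 populations, among them 7 beta genes, where 3.93% of all genes were. They were Psmb1, Psmb2, Psmb3, Psmb4, Psmb5, Psmb7, the immunoproteasome gene Psmb9, the ATPase gene Psmc6, the chaperone gene Psmd5 and the activator gene Psme2. The 4 comparisons may not be independent, since same-numbered LPS libraries deviated together (correlations of 0.0875 to 0.404). 0 members were called lower in all 4, where 4.89% of all genes were, and Psma5, Psma8, Psmc4, Psme1 and Psme4 passed in none. Of the 11 non-ATPase cap genes 11 rose in GMP, where 19.3% of all genes did. In GMP-MoP 1 rose, in proNeu1 0 by limma (3 at an unadjusted p under 0.05 and 0 with voom) and in proNeu2 1, where 13.4%, 11.2% and 12.6% of all genes rose.

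**Figure D3:**
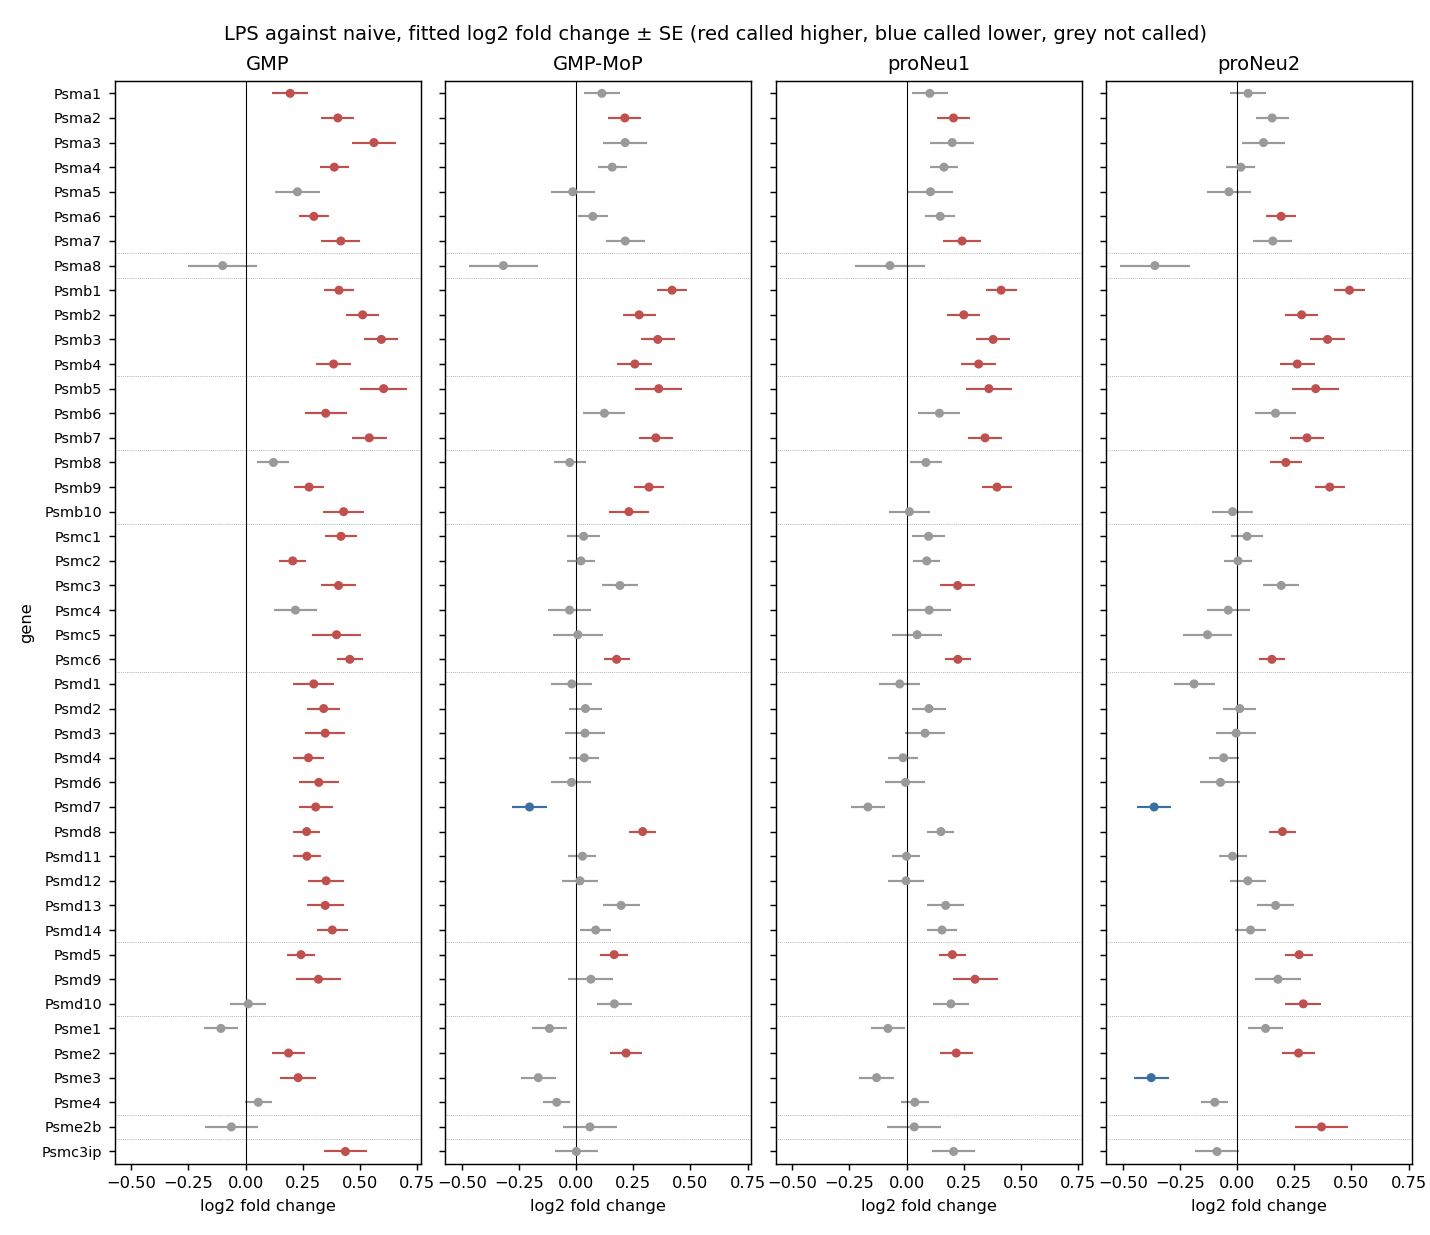
Fitted log2 fold change of LPS against naive for each of the 44 genes, 1 panel a population, with bars of 1 SE; red points were called higher, blue lower and grey not called. In GMP 36 points are red, with the cap genes included, while in GMP-MoP, proNeu1 and proNeu2 the 13, 14 and 15 red points include 8, 7 and 8 beta genes.

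Single libraries moved these counts. In GMP-MoP the count of higher genes was 8 without LPS library 2 and 6 without LPS library 3, and the 1 lower gene, Psmd7, was lost without LPS library 1 or any 1 of the 3 naive libraries. In proNeu1 it was 6 without LPS library 3 (with 1 gene lower) and 9 without naive library 1, and in proNeu2 it was 7 without LPS library 3 or without naive library 1. Library 1 was the lowest of its group in the members' median in each of the 4 LPS groups. Leaving these 4 libraries out, an alternative chosen after seeing the data, gave 39, 17, 20 and 20 higher genes in GMP, GMP-MoP, proNeu1 and proNeu2. Fitted alone, proNeu1 gave 6 and proNeu2 8 higher genes, and median-of-ratios scaling gave 22 in each. Over the whole table, short genes also had higher fold changes with LPS than long ones. Spearman's rho of log2 fold change with exon length, across genes that are not independent, was -0.25 in GMP, -0.28 in GMP-MoP, -0.30 in proNeu1 and -0.28 in proNeu2 over all 11383 genes, and between -0.17 and -0.23 over the 44 members. The 1373 genes under 1000 bases had a median log2 fold change of 0.11 in GMP, 0.12 in GMP-MoP, 0.18 in proNeu1 and 0.09 in proNeu2. Of the members 5 were under 1000 bases, among them Psmb2, Psmb3, Psmb5 and Psmb6. Their medians in the same order were 0.51, 0.28, 0.25 and 0.34. Those of the 4 members of 3000 bases or more were 0.27, 0.07, 0.12 and 0.09. The part of length in the members' changes was not tested.

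The LPS effect itself differed among populations for some genes. Near the share of 29% of all genes, an F test of limma over the differences of the LPS effect from that in GMP called 13 of 44 genes. The difference to GMP was negative for nearly all of them. It was called lower for 10 genes and higher for 0 in GMP-MoP (11.1% and 13.8% of all genes; 0 higher at an unadjusted p under 0.05 and with voom). In proNeu1 it was lower for 8 and higher for 0 (10.2% and 11.9%; 0 higher at an unadjusted p under 0.05 and with voom), and in proNeu2 lower for 17 and higher for 1, Psme2b (17.9% and 15.3%). This call on Psme2b was lost with voom. Psmd7 stood first. It had 106, 112 and 114 FPKM in naive GMP and 128, 143 and 141 FPKM in LPS GMP, a rise of 0.31 (SE 0.07), but 81.2, 85.7 and 86.7 FPKM in naive and 57.1, 68.7 and 71.5 FPKM in LPS proNeu2, a change of -0.36 (SE 0.07). The libraries did not overlap in either population, and the difference of the effects was -0.67 (SE 0.11, limma adjusted p = 3.26e-05). Psme3, a nuclear activator, showed the same contrast, with log2 fold changes of 0.23 in GMP and -0.38 in proNeu2 (difference -0.61, SE 0.11, limma adjusted p = 0.000154). For the constitutive catalytic genes the differences between populations did not pass, with limma adjusted p values for proNeu2 against GMP of 0.175 for Psmb5, 0.301 for Psmb6 and 0.0957 for Psmb7. The count of 13 was 4 without naive GMP library 1, 8 without naive GMP library 3, 3 without LPS GMP library 2, 5 without LPS GMP library 3 and 8 with median-of-ratios scaling. Same-numbered LPS libraries of different populations deviated together, with correlations of 0.0875 to 0.404. With the number as a block within each treatment the F test called 19 members, the 13 among them, and 33.9% of all genes. The difference to GMP was then lower for 23 genes in GMP-MoP, 18 in proNeu1 and 23 in proNeu2 and higher for 0 in each. These differences share the GMP libraries.

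Within the immunoproteasome Psmb9 was higher with LPS in all 4 populations and Psmb8 in 1. Psmb9 had 58.1, 56.0 and 58.5 FPKM in naive GMP and 71.6, 70.4 and 67.9 FPKM in LPS GMP (log2 fold change 0.28, SE 0.07, limma adjusted p = 0.00118). In proNeu2 it had 41.0, 46.3 and 49.5 FPKM in naive and 61.2, 56.9 and 63.8 FPKM in LPS libraries (0.41, SE 0.07, limma adjusted p = 3.96e-05). The rise in GMP-MoP was 0.32 and that in proNeu1 0.40 (SE 0.07 each), again without overlap of libraries. Psmb8 rose in proNeu2 alone, from 39.7 ± 2.66 to 46.3 ± 4.88 FPKM (0.21, SE 0.07, limma adjusted p = 0.0191), and this call was lost without LPS proNeu2 library 3, without naive proNeu2 library 1 or 2, and with the groups fitted alone. In GMP its value was 0.12 (SE 0.07, limma adjusted p = 0.154), and the effects in proNeu2 and GMP did not differ past the threshold (0.09, SE 0.10, limma adjusted p = 0.523). Psmb10 rose in GMP (0.43, SE 0.09, limma adjusted p = 0.000336) and, at a limma adjusted p of 0.0496 that was lost without LPS library 2 or 3 or any 1 naive library and with a pseudocount of 0.1, in GMP-MoP (0.23, SE 0.09). In proNeu1 and proNeu2 it was at 0.01 and -0.02 (SE 0.09 each), below the effect in GMP (differences -0.42 and -0.45, SE 0.12 each, limma adjusted p = 0.0182 and 0.00746).

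Psmb5 and Psmb7 rose in all 4 populations, Psmb5 by 0.60 in GMP, 0.36 in GMP-MoP, 0.36 in proNeu1 and 0.34 in proNeu2 (SE 0.10 each) and Psmb7 by 0.54, 0.35, 0.34 and 0.31 (SE 0.08 each). The calls on Psmb5 were lost in GMP-MoP without LPS library 3, in proNeu1 without LPS library 3 or naive library 2, and in proNeu2 without LPS library 3 or naive library 1. Psmb6 passed in GMP alone (0.35, SE 0.09, limma adjusted p = 0.00292), with values of 0.12 to 0.17 elsewhere. The ratios of the catalytic genes moved by pair. The log2 ratio of Psmb8 to Psmb5 was lower in LPS than in naive libraries, at -0.20 ± 0.05 against 0.28 ± 0.14 in GMP and -0.28 ± 0.10 against 0.11 ± 0.08 in GMP-MoP, without overlap in either. It was -0.92 ± 0.06 against -0.65 ± 0.12 in proNeu1, also without overlap, and -1.09 ± 0.14 against -0.96 ± 0.04 in proNeu2. In proNeu2 the libraries did not overlap but nearly met, with the highest LPS value at -0.9824 and the lowest naive value at -0.9808. Psmb9 to Psmb6 was -1.10 ± 0.24 in LPS against -1.35 ± 0.05 in naive proNeu1, and -0.92 ± 0.17 against -1.16 ± 0.07 in proNeu2. In GMP-MoP it was -1.06 ± 0.20 against -1.25 ± 0.04, and in GMP it went the other way, at -1.20 ± 0.14 against -1.12 ± 0.09, with overlap of libraries in proNeu1, GMP-MoP and GMP. Psmb10 to Psmb7 was lower in LPS libraries without overlap in proNeu1, at -0.71 ± 0.18 against -0.38 ± 0.04, and in proNeu2, where it ran from -1.03 to -0.98 over the LPS libraries against -0.67 ± 0.08. It was -0.32 ± 0.12 against -0.21 ± 0.08 in GMP and -0.09 ± 0.11 against 0.03 ± 0.02 in GMP-MoP, where the libraries overlapped. These ratios are a description with no test. Each immunoproteasome gene was counted over more exon bases than its partner, as Psmb8 with 1628 and Psmb5 with 899. The part of length in the ratios was not tested. The immunoproteasome share of the 6 genes was 37.8 to 40.5% over the libraries of LPS GMP, 41.1 ± 1.48% in LPS GMP-MoP, 34.1 ± 2.17% in LPS proNeu1 and 33.2 ± 1.62% in LPS proNeu2, and it overlapped with the naive share in all but GMP.

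**Figure D4:**
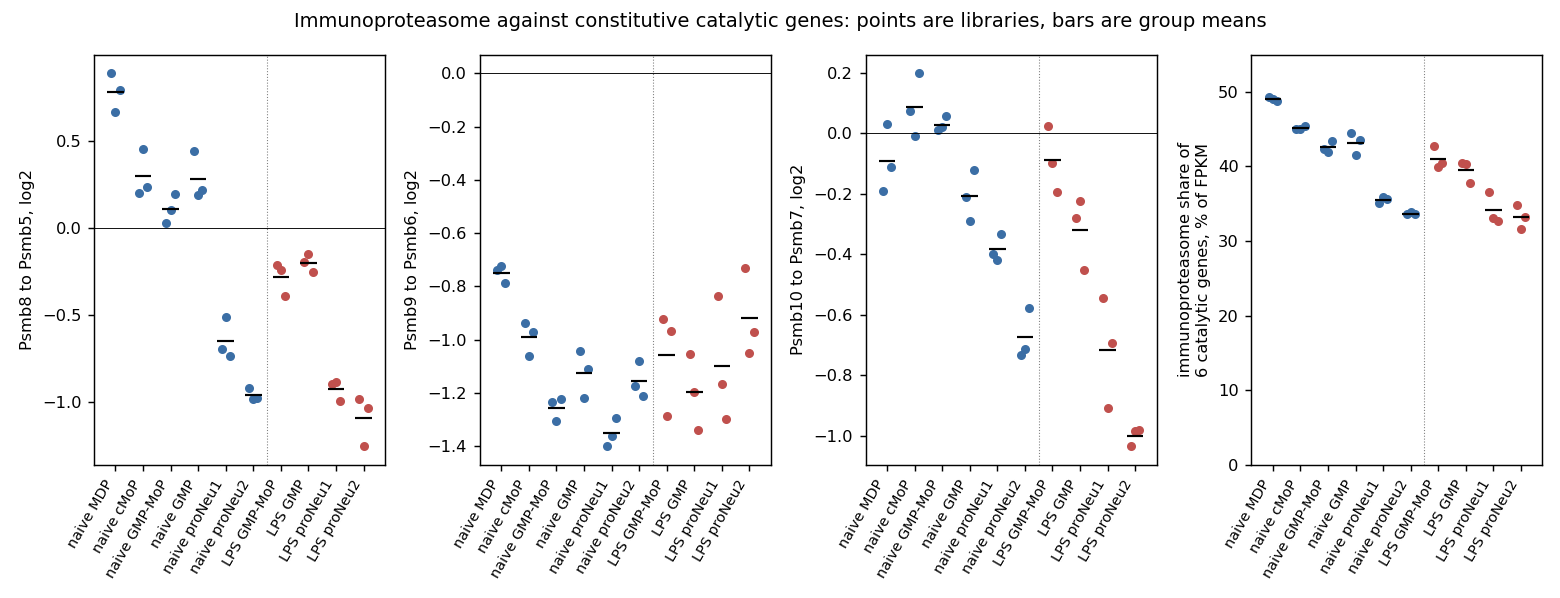
Log2 ratio of each immunoproteasome gene to its constitutive partner and, in the last panel, the percent of the summed FPKM of 6 catalytic genes held by the 3 immunoproteasome genes; 1 point a library, bars at the means of 3 libraries, naive in blue and LPS in red. The ratio of Psmb8 to Psmb5 passes from 0.78 in naive MDP to -0.96 in naive proNeu2, and lies below the naive value in each LPS group.

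The activator genes differed among themselves. Psme1 was highest in naive MDP, at 237, 237 and 246 FPKM, and lowest in naive proNeu2, at 117, 137 and 147 FPKM, and its log2 fold change with LPS was -0.11 in GMP, -0.12 in GMP-MoP, -0.08 in proNeu1 and 0.12 in proNeu2 (SE 0.08 each), with limma adjusted p values of 0.21 to 0.451. Psme2, its partner in the PA28 ring, was highest in naive cMoP (98.3 ± 6.38 FPKM) and lowest in naive proNeu2 (49.9 ± 2.78 FPKM) and rose with LPS in all 4 populations, by 0.19 to 0.27 on the log2 scale (SE 0.07 each). These calls on Psme2 did not hold in every case: in GMP, GMP-MoP and proNeu1 each was lost without some 1 of the compared libraries, in proNeu2 without LPS library 3, and in proNeu1 and proNeu2 with the groups fitted alone. Psme2 and Psme2b share words (33.5% and 78.4% of theirs occur in other genes), so reads may be split between them. Psme3 was highest in naive GMP-MoP (111.9 ± 7.16 FPKM) and fell with LPS in proNeu2. Psme4, the activator PA200, was lowest in naive MDP (16.5 ± 0.39 FPKM), below all libraries of the other groups, and it passed with LPS in none of the 4 populations (log2 fold changes of -0.10 to 0.06).

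Genes around the proteasome were followed in lists. Their counts stand beside shares of all genes called higher and lower with LPS of 19.3% and 29.6% in GMP, 13.4% and 17.6% in GMP-MoP, 11.2% and 17.2% in proNeu1, and 12.6% and 24.1% in proNeu2. Of 8 measured assembly factors and inhibitors 5 rose with LPS in GMP and 0 fell, in GMP-MoP and proNeu1 2 rose in each, and in proNeu2 1 rose and 3 fell. Pomp, which matures the core, rose in all 4, in GMP from 19.2 ± 1.65 to 23.8 ± 0.21 FPKM (log2 fold change 0.30, SE 0.06, limma adjusted p = 0.000453). Psmg4, another chaperone of core assembly, rose in GMP, GMP-MoP and proNeu1. Psmg1, a chaperone of the alpha ring, rose in GMP (0.30, SE 0.09) and fell in proNeu2 (-0.24, SE 0.09). Of 11 ubiquitin receptors and deubiquitinases 6 rose and 3 fell in GMP, with Sem1, a small cap subunit, at 60.2 ± 6.27 FPKM in naive and 91.8 ± 4.74 FPKM in LPS GMP (0.60, SE 0.09), and with the deubiquitinase Usp14 at 0.46 (SE 0.08). In the other 3 populations 1 rose, Sem1, and 2 to 3 fell. Nfe2l1, the transcription factor known for raising proteasome genes when proteasome activity falls, was lower with LPS in proNeu2, at 22.7 ± 0.14 FPKM in naive and 18.6 ± 0.74 FPKM in LPS libraries (-0.28, SE 0.05). It also fell in GMP-MoP and proNeu1 (-0.16, SE 0.05 each), and in GMP its value was -0.04 (SE 0.05). Of the 9 measured genes of its pathway 1 rose and 2 fell in GMP, and 0 rose while 2, 3 and 2 fell in GMP-MoP, proNeu1 and proNeu2. Of the 12 MHC class I genes 7 rose in GMP, 6 in GMP-MoP, 5 in proNeu1 and 5 in proNeu2, while 2, 2, 1 and 2 fell. Tap1, whose start adjoins that of Psmb9, fell in GMP (-0.18, SE 0.07, limma adjusted p = 0.0346) and rose in GMP-MoP (0.24), proNeu1 (0.23) and proNeu2 (0.40, SE 0.07 each). Of 20 interferon response genes 3 rose and 7 fell in GMP, 7 rose and 0 fell in GMP-MoP, 3 rose and 1 fell in proNeu1, and 3 rose and 0 fell in proNeu2. The interferon counts in GMP lie near the shares over all genes, and no list was tested against them.

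Over the 30 libraries the genes most like Psmb8 in log2(FPKM + 1) included Nek6 (Pearson's r = 0.983), Ube2r2 (0.976), Erf (0.973) and Prdx2 (0.972). For Psmb9 they were Mtch1 and Raly (0.942 each), Rhoq (0.937), Emc3 (0.936) and Sptssa (0.908), and for Psmb10 Mtch2 (0.955), Hint1 (0.951), Ndufv1 (0.950), Atp5a1 (0.949) and Atp5o (0.948). These points share their libraries and groups, and the values are a description.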

How the data were processed

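RNA of 30 libraries in 10 groups of 3 was sequenced. Per the submitters' processing notes, reads passed through Trimmomatic 0.38.0, STAR 2.7.8 and featureCounts 2.0.1 with build GRCm38, and the authors deposited FPKM per gene. The gene annotation and the strand setting are not given in the sources used here. Whole reads could be recovered from the FPKM of 11383 of 11383 genes (within 0.02 reads or 1e-07 of the value, at most 0.1 reads), and limma-voom on these reads was an alternative. PCR copies are counted as reads, so precision from depth covers counting error only.

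The main test was limma 3.58.1 (R 4.3.3) applied to log2(FPKM + 1) with its trend option, a single fit of 30 libraries, no block and an adjusted p under 0.05. The low-value filter kept genes that reached an FPKM of 1 in 3 or more libraries, which was every gene. Sums, ratios and figures used Python 3.11.15. The calculations were tested on simulated data. The members and the gene lists were chosen with earlier results of these data known. Genes were named by a rule: the catalytic and activator genes, up to 5 called members each way per comparison, the extremes of each subcomplex, up to 4 called genes of a list, and the 5 genes most like each immunoproteasome gene; Psmg1, Nfe2l1 and Tap1 were named for their roles after their values were seen. Alternatives were another pseudocount, scaling, filter, call rule and test, a replicate block, the compared groups alone and leaving out each library. Correlations of the deviations of same-numbered libraries were -0.246 to 0.375 between compared groups, in none of them over 0.1 for every number, so the numbers were not taken as pairs there. Naive GMP-MoP with naive proNeu1 came close to this limit, at 0.186, 0.375 and 0.0973. Same-numbered LPS libraries of different populations deviated together in every pair (0.0875 to 0.404). Differences of the LPS effect were therefore also fitted with the number as a block within each treatment, an alternative chosen after seeing the data. A gene among those most like Psmb8 and a list of ubiquitin genes are not reported here.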

Additional observations from a re-analysis of the deposited data

Results flagged for a closer look

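The LPS effect differed among GMP, GMP-MoP, proNeu1 and proNeu2 for 13 of 44 members by limma's F test of the differences, adjusted over all 11383 genes. This share lies near the 29% of all genes that the same test called, and the count ran from 3 to 18 when 1 library was left out. The adjusted p was 0.000171 for Psmd7 and 0.00125 for Psme3, whose log2 fold changes had opposite signs in GMP and proNeu2. It was 0.0113 for the ATPase gene Psmc1, 0.0151 for Psmc3ip, 0.0169 for the ATPase gene Psmc6, 0.0171 for the alpha gene Psma4 and 0.0208 for the immunoproteasome gene Psmb10. Among further cap genes it was 0.0281 for Psmd1, 0.029 for Psmd4, 0.0353 for Psmd11, 0.0383 for Psmd14 and 0.0448 for Psmd12. For the alpha gene Psma3 it was 0.0495. Groups held 3 libraries, so no single library was tested for standing apart.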

How the results depend on the processing

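With median-of-ratios scaling 17 members were higher and 1 lower in cMoP against MDP, 19 higher and 3 lower in proNeu1 against GMP, 4 lower in proNeu2 against proNeu1, 15 higher in GMP-MoP against proNeu1, 0 lower with LPS in GMP-MoP and 22 higher with LPS in proNeu1, and the LPS effect differed among populations for 8. With the compared groups alone 10 were higher in cMoP against MDP, 16 in GMP-MoP against cMoP, 6 with LPS in proNeu1 and 8 in proNeu2, and 0 were lower with LPS in GMP-MoP. The replicate block gave 8 higher in proNeu1 against GMP and 1 lower with LPS in proNeu1. With the number as a block within each treatment, chosen after seeing the data, the LPS effect differed among populations for 19 members. Without the LPS libraries numbered 1, chosen after seeing the data, 0 were lower with LPS in GMP-MoP. Requiring a log2 fold change of at least 1 left 0 members in every comparison. Leaving out 1 library gave 1 to 4 higher and 4 to 8 lower in proNeu1 against GMP, 7 to 16 lower in proNeu2 against proNeu1, 18 to 26 higher in GMP-MoP against GMP and 3 to 8 against cMoP. With LPS it gave 6 to 16 higher and 0 to 1 lower in GMP-MoP, 6 to 15 and 0 to 1 in proNeu1, 7 to 20 higher in proNeu2, and 3 to 18 members whose effect differed. The cause was not tested. Over all settings 265 counts stayed within 1.5 times and 57 did not. Of the fold changes of single genes 378 stayed called or stayed not called, 7 became called and 31 lost the call. 0 reversed among those called in either fit. Values not called could change sign, as that of Psmb8 with LPS in GMP-MoP, which ran from -0.0682 to 0.0181 when 1 library was left out.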
